A study of Mus musculus with 2 samples.

Results

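The kainate receptor genes Grik1, Grik2, Grik3, Grik4 and Grik5 and the auxiliary subunit genes Neto1 and Neto2 were followed across the nucleus classes of mouse hippocampal area CA1 in chronic epilepsy. The 7 genes were taken by their symbols from the deposited count matrices, which list 30431 genes. The study asked how gene expression differs between epileptic and control animals in deep and superficial CA1 pyramidal neurons. RNA was measured nucleus by nucleus with a droplet method that tags every captured molecule with a unique molecular identifier (UMI) and reads its 3' end.

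The epilepsy library came from male C57BL/6J mice given kainate at 5 mg/kg every hour until status epilepticus, a state of continuous seizures, and then diazepam at 4 mg/kg to end the convulsions. The control library came from male C57BL/6J mice injected with vehicle, either saline or DMSO. Mice of both groups carried Calb1::Cre and Tdtomato, a Cre driver under Calb1 and a red fluorescent reporter, were 6 to 7 weeks old at treatment, and were killed 12 weeks later. Dorsal CA1 was cut by hand from 4 slices, and 15000 sorted nuclei were loaded per library. The labels name 2 mice per condition and do not say whether a library holds 1 or both. With 1 library per condition, no difference between epilepsy and control has a replicate check and none was tested. Every interval below is a 95% interval that covers counting error only.

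Kainate receptors are tetrameric glutamate-gated channels. The subunits encoded by Grik1, Grik2 and Grik3 form channels by themselves, whereas those encoded by Grik4 and Grik5 bind kainate with higher affinity and need a partner from the first group. Neto1 and Neto2 are membrane proteins with CUB domains that join the channel and change its gating. In the rodent hippocampus these receptors are best known at mossy fibre synapses on CA3 pyramidal cells and on interneurons, and kainate, used here as the convulsant, activates them.

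Depth was 7112131 UMIs over 3078 nuclei in epilepsy, a median of 2443 for each nucleus, against 11858162 UMIs over 3661 nuclei and a median of 3447 in control. The libraries shared 16 cell barcodes. After removal of likely doublets, 2985 epilepsy and 3551 control nuclei were clustered without the 7 genes. CA1 pyramidal-like nuclei numbered 2338 in epilepsy and 2835 in control, of which 988 in epilepsy and 1166 in control formed 2 superficial-like clusters, and 446 in epilepsy and 605 in control a deep-like cluster led by Col11a1. Against the labelled tissue, the libraries also held 14 epilepsy and 153 control dentate granule-like nuclei, and 52 epilepsy and 30 control CA2/CA3 pyramidal-like nuclei, whose sub-clusters differed in size between the libraries. RNA of 9 CA1 pyramidal markers was also found in glial classes. These markers stood at a median of 58.2% of their pyramidal level in epilepsy oligodendrocyte-like nuclei and 61.1% in control ones. In microglia-like nuclei the median was 65.3% in epilepsy and 80.4% in control. Levels of the 7 genes in these glial classes may therefore include RNA of CA1 pyramidal nuclei, in a part that was not tested. Median depths were 615 UMIs in epilepsy and 849 in control for oligodendrocyte-like nuclei, and 801.5 UMIs in epilepsy and 3002 in control for microglia-like nuclei. A level below is the number of UMIs of a gene over all UMIs of the class in that library, scaled to 1000000 (CPM). Levels were compared for 1 gene across classes and not between genes, because gene length was not taken into account.

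Grik1, on chromosome 16 (GRCm38, 87895900 to 88290265, minus strand), encodes GluK1, the subunit best known from hippocampal interneurons. It was far higher in interneuron-like nuclei than in CA1 pyramidal-like nuclei of both libraries. Interneuron-like nuclei held 387 Grik1 UMIs (1171 CPM) in epilepsy and 958 UMIs (1453 CPM) in control. CA1 pyramidal-like nuclei held 94 UMIs (16.1 CPM) in epilepsy and 78 UMIs (8.03 CPM) in control, so that the interneuron level was 72.6-fold higher in the epilepsy library and 180.9-fold higher in the control library. Oligodendrocyte-like nuclei held 45 Grik1 UMIs (146.4 CPM) in epilepsy and 33 UMIs (94.1 CPM) in control, above the CA1 pyramidal-like level in both libraries.

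Within the interneurons, Grik1 was spread unevenly over 9 sub-clusters. It reached 4874 CPM in epilepsy and 4098 CPM in control in a cluster led by Kit and Ndnf, the genes of a growth factor receptor and a secreted protein found in neurogliaform cells. A cluster led by Sst, the gene of the neuropeptide somatostatin, had 2099.5 CPM in epilepsy and 2375 CPM in control. By contrast, a cluster led by Cdh18 and Syt2, with the markers Sox6 and Pvalb, the gene of the calcium buffer parvalbumin, had 129.9 CPM in epilepsy and 84.6 CPM in control. A cluster led by Slc17a8 and Cnr1, the cannabinoid receptor gene, had 346.2 CPM in epilepsy and 528.1 CPM in control. The order from the Kit and Ndnf cluster through the Sst cluster to the Slc17a8 and Pvalb clusters was the same in both libraries, with counting intervals that did not overlap between neighbours within the control library; in epilepsy those of the Slc17a8 cluster (19 UMIs) and the Pvalb cluster (9 UMIs) did overlap. A cluster led by Meis2 and Chrm2 held 3 epilepsy and 13 control nuclei, with 1965 CPM in epilepsy and 5086 CPM in control. Summed over clusters with markers of caudal origin (CGE-like: Adarb2, Npas1, Vip, Lamp5, Cnr1) the level was 1316 CPM in epilepsy and 1354 CPM in control. Over clusters with markers of medial origin (MGE-like: Lhx6, Sox6, Satb1, Sst, Pvalb) it was 1667 CPM in epilepsy and 1828 CPM in control. The CGE-like subset held 54 epilepsy and 55 control nuclei. The MGE-like subset held 28 epilepsy and 33 control nuclei, of which the Sst cluster made up 21 and 24. The cluster led by Cdh18 and Syt2 had too few markers for either subset, so the MGE-like levels here and below leave it out. The counting intervals of the libraries overlapped within each subset.

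**Figure D1:**
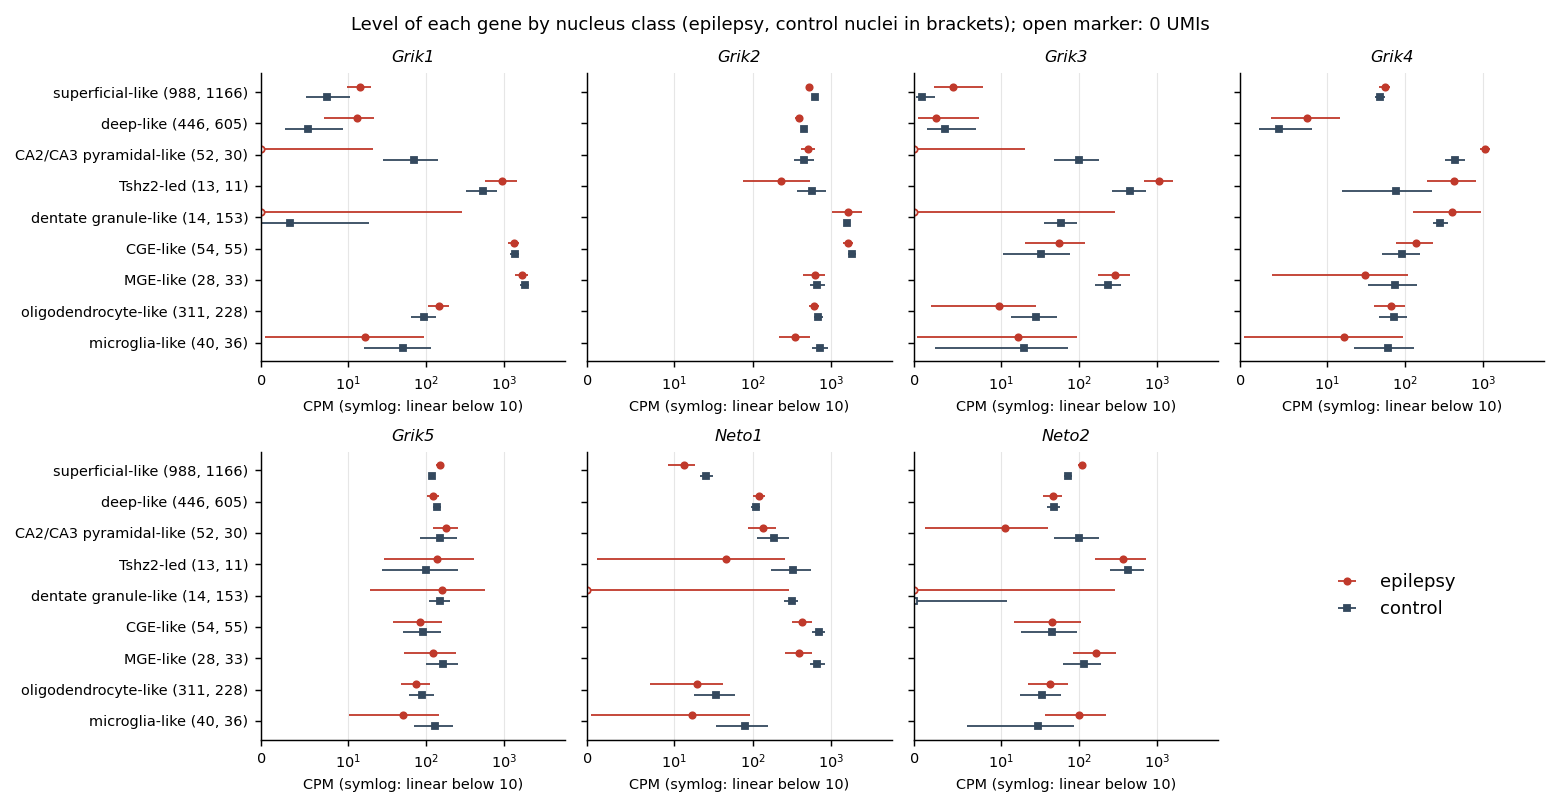
Level of each of the 7 genes (CPM, symmetric log axis that is linear below 10) in 9 nucleus classes, with the epilepsy library (red circles) above the control library (blue squares) in each class and 95% Poisson intervals as bars. Grik1 was at 1316 CPM or more in CGE-like and MGE-like nuclei of both libraries and at 14.1 CPM or less in superficial-like and deep-like nuclei, while Grik4 was highest in CA2/CA3 pyramidal-like nuclei (1034 CPM in epilepsy, 437.9 CPM in control).

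Another small population was rich in Grik1. A cluster of 13 epilepsy and 11 control nuclei led by Tshz2 and Vwc2l, which had grouped with the CA2/CA3 nuclei and was set apart after its genes had been seen, held 20 Grik1 UMIs (926.9 CPM) in epilepsy and 21 UMIs (527.4 CPM) in control. The same nuclei had 1066 CPM of Grik3 in epilepsy and 452.1 CPM in control, and 370.8 CPM of Neto2 in epilepsy and 427 CPM in control. Grik1 was itself among the 10 leading genes of this cluster, so its level there and its scarcity in the other CA2/CA3 nuclei follow in part from setting the cluster apart. Among the neuronal classes these nuclei had the highest Grik3 and the highest Neto2 levels measured in each library. Grik1 was listed at 0 UMIs in the 52 epilepsy CA2/CA3 pyramidal-like nuclei, where 3 UMIs would have been 16.9 CPM, and the 7 UMIs of the 30 control nuclei all came from 1 nucleus.

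Grik2, on chromosome 10 (GRCm38, 49094833 to 49788766, minus strand), encodes GluK2, the principal subunit of kainate receptors in hippocampal pyramidal and granule cells. It was found in every neuronal class. CA1 pyramidal-like nuclei held 2644 Grik2 UMIs (454 CPM, interval 437 to 472) in epilepsy and 5420 UMIs (558 CPM, 543 to 573) in control. The intervals of the libraries did not overlap, and the level was lower in epilepsy.

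The highest Grik2 levels among the classes were in dentate granule-like and CGE-like nuclei. Dentate granule-like nuclei had 1649 CPM from 21 UMIs in epilepsy and 1629.9 CPM from 491 UMIs in control, which was 3.63-fold the CA1 pyramidal level in the epilepsy library and 2.92-fold in the control library. CGE-like nuclei had 1666 CPM in epilepsy and 1879 CPM in control, or 2.68-fold the MGE-like level in epilepsy and 2.79-fold in control. Grik2 and Grik1 were thus both high in the Kit and Ndnf cluster, where Grik2 reached 2912 CPM in epilepsy and 2556 CPM in control. The Sst cluster, which was also rich in Grik1, had 500.8 CPM of Grik2 in epilepsy and 513.5 CPM in control. CA2/CA3 pyramidal-like nuclei, with 511.6 CPM in epilepsy and 457.8 CPM in control, did not differ from CA1 pyramidal-like nuclei beyond counting error in either library. Oligodendrocyte-like nuclei had 611.8 CPM of Grik2 in epilepsy (134.8% of the CA1 pyramidal level) and 693.2 CPM in control (124.2%). Of the pyramidal markers, only Pex5l exceeded its pyramidal level there, at 115.5% in epilepsy and 112.2% in control. The next highest were Spink8 at 81.5% in epilepsy and Man1a at 74.4% in control.

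Grik2 was moderately higher in superficial-like than in deep-like nuclei. Superficial-like nuclei had 531.8 CPM in epilepsy and 629.8 CPM in control, and deep-like nuclei had 387.4 CPM in epilepsy and 460.9 CPM in control. The superficial level was 1.37-fold the deep level in both libraries. Thinned to 1000 UMIs per nucleus, to set the libraries at 1 depth, 35.3% of 2208 epilepsy and 41.4% of 2745 control CA1 pyramidal-like nuclei had a Grik2 UMI. Nuclei with fewer UMIs, out of 2338 epilepsy and 2835 control nuclei, were left out, and the unthinned shares were 62.2% in epilepsy and 77.9% in control.

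Grik3, on chromosome 4 (GRCm38, 125490700 to 125714173, plus strand), encodes GluK3, a subunit with low sensitivity to glutamate. It was scarce in CA1 pyramidal-like nuclei, with 27 UMIs (4.63 CPM) in epilepsy and 26 UMIs (2.68 CPM) in control. Interneuron-like nuclei had 49 UMIs (148.3 CPM) in epilepsy and 109 UMIs (165.3 CPM) in control. CGE-like nuclei had 6 UMIs (55.2 CPM) in epilepsy and 5 UMIs (32.9 CPM) in control, and MGE-like nuclei 19 UMIs (287.9 CPM) in epilepsy and 29 UMIs (237.8 CPM) in control. Grik3 thus ran opposite to Grik2 between these interneuron subsets. The cluster led by Cacna2d1 and Nos1, the gene of neuronal nitric oxide synthase, had no Grik3 UMI in 27 epilepsy and 47 control nuclei, while its Grik1 level was 1342 CPM in epilepsy and 1568 CPM in control. Dentate granule-like nuclei had 0 UMIs in epilepsy, where 3 UMIs would have been 235.6 CPM, and 18 UMIs (59.8 CPM) in control.

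**Figure D2:**
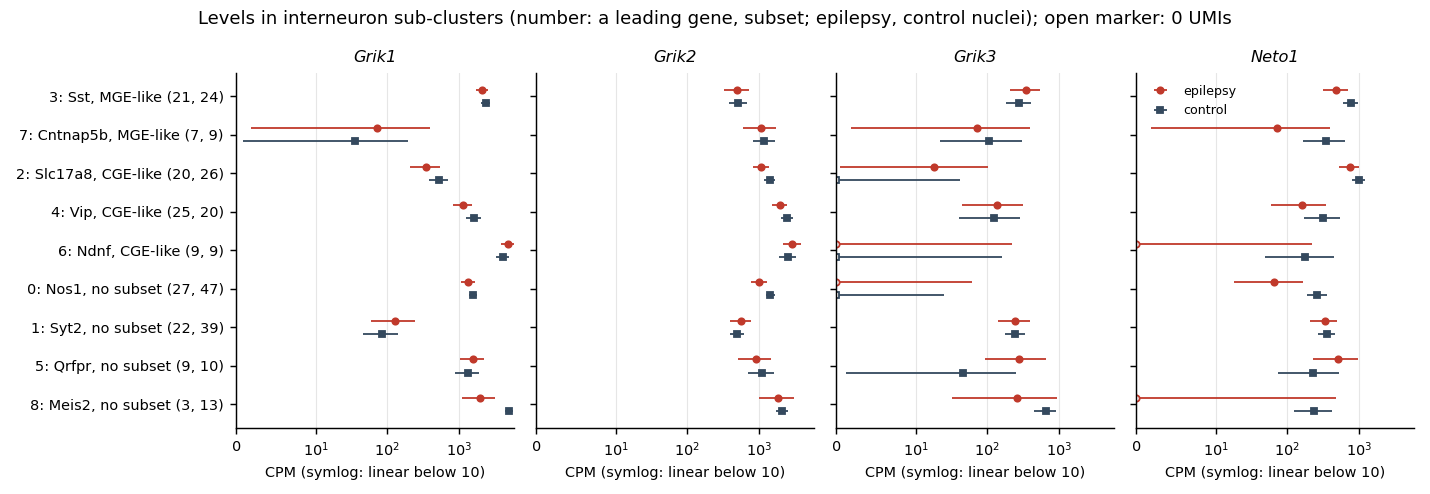
Levels of Grik1, Grik2, Grik3 and Neto1 (CPM, symmetric log axis that is linear below 10) in 9 interneuron sub-clusters named by a leading gene, with epilepsy (red circles) above control (blue squares) and 95% Poisson intervals; open markers are 0 UMIs. Grik1 was at 129.9 CPM or less in the clusters led by Syt2 and Cntnap5b and at 4098 CPM or more in the cluster led by Ndnf, whereas Grik2 lay between 500.8 and 2912 CPM and Neto1 was highest in the cluster led by Slc17a8 (747.1 CPM in epilepsy and 1000.1 CPM in control).

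Grik4, on chromosome 9 (GRCm38, 42518135 to 42944493, minus strand), encodes the high-affinity subunit GluK4, known for its expression in CA3. CA2/CA3 pyramidal-like nuclei held 184 Grik4 UMIs (1034 CPM) in epilepsy and 44 UMIs (437.9 CPM) in control. CA1 pyramidal-like nuclei held 227 UMIs (39 CPM) in epilepsy and 319 UMIs (32.8 CPM) in control. The CA2/CA3 level was 26.5-fold the CA1 level in epilepsy and 13.3-fold in control. Grik4 was found in 90.4% of the CA2/CA3 nuclei in epilepsy and in 40% in control, and after thinning to 1000 UMIs in 61.5% in epilepsy (interval 47 to 74.7) and 26.7% in control (12.3 to 45.9). In oligodendrocyte-like nuclei the level was 65.1 CPM from 20 UMIs in epilepsy and 71.3 CPM from 25 UMIs in control. That was 167% of the CA1 pyramidal-like level in epilepsy and 217% in control, more than for any of the 9 pyramidal markers in these nuclei. Dentate granule-like nuclei had 392.6 CPM from 5 UMIs in epilepsy and 282.2 CPM from 85 UMIs in control.

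Within CA1, Grik4 marked the superficial-like nuclei although it had no part in the clustering. Superficial-like nuclei had 144 UMIs (55 CPM) in epilepsy and 202 UMIs (47.8 CPM) in control, and deep-like nuclei had 9 UMIs (7.75 CPM) in epilepsy and 10 UMIs (4.52 CPM) in control. The superficial-to-deep log2 ratio was 2.83 in epilepsy and 3.40 in control. The clusters were built from genes that vary together with Grik4, so this is a description of the clusters.

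The superficial-like nuclei fell into a cluster led by Necab1 and Pcdh7 and a cluster led by Tenm3 and Lingo2. In the Pcdh7 cluster, Grik4 had 70.4 CPM in epilepsy and 70.1 CPM in control. In the Tenm3 cluster it had 41 UMIs (35.5 CPM) in epilepsy and 34 UMIs (18.6 CPM) in control. The log2 ratio of epilepsy to control was 0.01 (-0.36 to 0.37) in the Pcdh7 cluster and 0.93 (0.24 to 1.63) in the Tenm3 cluster, and the difference of -0.93 had a counting interval of -1.67 to -0.18.

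Grik5, on chromosome 7 (GRCm38, 25009849 to 25072346, minus strand), encodes GluK5, the widely expressed high-affinity partner of GluK2. Its level lay between 106.2 and 179.9 CPM in the CA1 pyramidal-like, CA2/CA3 pyramidal-like, dentate granule-like and whole interneuron-like classes. The CGE-like values lay below this range but came from few counts, 9 UMIs (82.8 CPM) in epilepsy and 14 UMIs (92 CPM) in control. The log2 ratio of the CGE-like to the MGE-like level was -0.55 (-2.10 to 1.03) in epilepsy and -0.83 (-1.93 to 0.22) in control. Both intervals included 0. CA1 pyramidal-like nuclei had 876 UMIs (150.4 CPM) in epilepsy and 1267 UMIs (130.4 CPM) in control. Interneuron-like nuclei had 112 CPM in epilepsy and 106.2 CPM in control, and CA2/CA3 pyramidal-like nuclei 179.9 CPM in epilepsy and 149.3 CPM in control. Dentate granule-like nuclei had 157.1 CPM in epilepsy, from 2 UMIs, and 149.4 CPM in control. The counting intervals of the level overlapped between epilepsy and control in each of these last 3 classes. In oligodendrocyte-like nuclei the Grik5 level was 74.8 CPM in epilepsy and 88.4 CPM in control, or 49.8% of the pyramidal level in epilepsy and 67.8% in control, which lay within the range of the pyramidal markers there.

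Neto1, on chromosome 18 (GRCm38, 86394952 to 86506718, plus strand), encodes an auxiliary subunit that also binds NMDA receptors. It was lower in superficial-like than in deep-like nuclei of both libraries. Superficial-like nuclei held 35 Neto1 UMIs (13.4 CPM) in epilepsy and 109 UMIs (25.8 CPM) in control. Deep-like nuclei held 140 UMIs (120.5 CPM) in epilepsy and 242 UMIs (109.5 CPM) in control, so the superficial-to-deep log2 ratio was -3.17 in epilepsy and -2.08 in control. Neto1 was among the 10 leading genes of the deep-like cluster without having been used to build it. That cluster was built from genes that vary together with Neto1, so this is a description of the cluster. The cluster led by Mkx, which had no sublayer name, lay between the superficial-like and deep-like nuclei with 39.5 CPM in epilepsy and 50.3 CPM in control.

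Outside CA1, Neto1 had 134.9 CPM in epilepsy and 189.1 CPM in control in CA2/CA3 pyramidal-like nuclei, and 315.4 CPM in the control dentate granule-like nuclei, whose 14 epilepsy counterparts had no UMI at a floor of 235.6 CPM. Interneuron-like nuclei had 109 UMIs (329.9 CPM) in epilepsy and 303 UMIs (459.6 CPM) in control. The cluster led by Slc17a8 and Cnr1 had the highest Neto1 level of the interneuron clusters in both libraries. Lower Grik1 and high Neto1 thus met in this cluster. In the Kit and Ndnf cluster, where Grik1 was high, Neto1 had 0 UMIs in epilepsy and 4 UMIs in control, each from 9 nuclei. These counts lie near the floor of 3 UMIs, too few to say that the reverse held there.

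Neto2, on chromosome 8 (GRCm38, 85636588 to 85700924, minus strand), encodes the second auxiliary subunit, which also binds the chloride transporter KCC2. CA1 pyramidal-like nuclei held 511 UMIs (87.7 CPM) in epilepsy and 616 UMIs (63.4 CPM) in control. Its sublayer pattern was opposite to that of Neto1. Superficial-like nuclei had 108.4 CPM in epilepsy and 72 CPM in control, and deep-like nuclei had 46.5 CPM in epilepsy and 47.9 CPM in control, which gave superficial-to-deep log2 ratios of 1.22 in epilepsy and 0.59 in control. When nuclei were divided into sublayers by their median marker score and not by cluster, the Neto2 ratio was 0.48 in epilepsy and 0.29 in control. Dentate granule-like nuclei had 0 Neto2 UMIs in both libraries, and 3 UMIs would have been 235.6 CPM in epilepsy and 9.96 CPM in control. CA2/CA3 pyramidal-like nuclei had 2 UMIs (11.2 CPM) in epilepsy and 10 UMIs (99.5 CPM) in control.

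**Figure D3:**
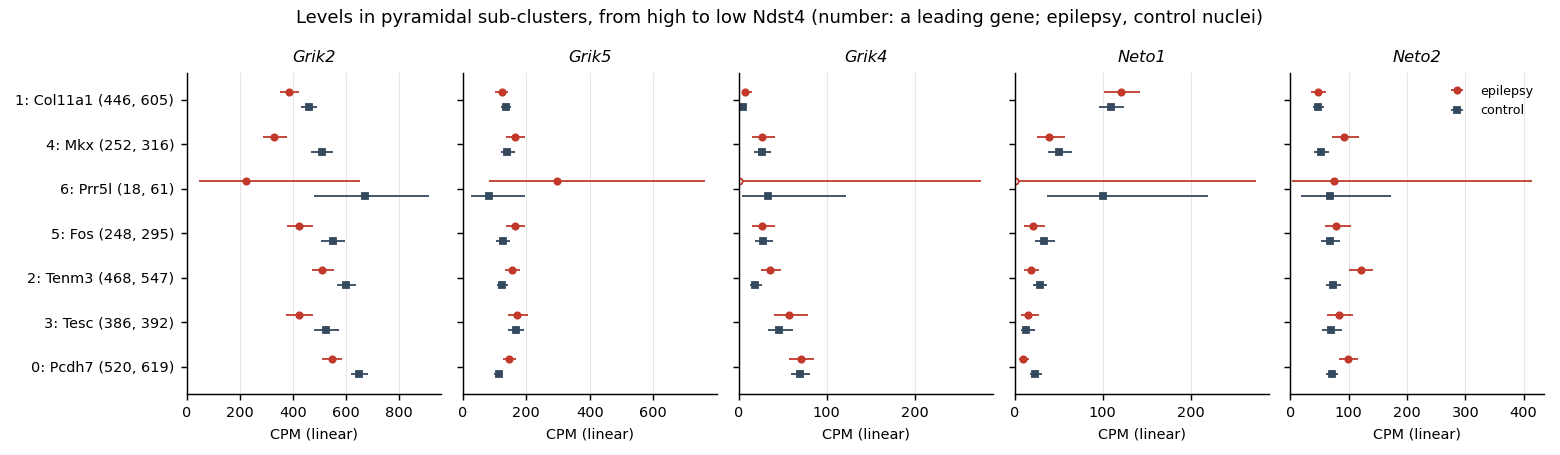
Levels of Grik2, Grik5, Grik4, Neto1 and Neto2 (CPM, linear axes) in 7 CA1 pyramidal sub-clusters ordered from high to low Ndst4 (a deep-layer marker), with epilepsy (red circles) above control (blue squares) and 95% Poisson intervals. In the Pcdh7 cluster at the bottom, Neto1 was at 9.57 CPM in epilepsy and 23.8 CPM in control and Grik4 at 70.4 CPM in epilepsy and 70.1 CPM in control; in the Col11a1 cluster at the top, Neto1 was at 120.5 CPM in epilepsy and 109.5 CPM in control and Grik4 at 7.75 CPM in epilepsy and 4.52 CPM in control. The clusters between them do not follow 1 steady order, and the cluster led by Prr5l held 18 epilepsy and 61 control nuclei and has wide intervals.

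With sublayers drawn by cluster, Grik4 and Neto2 had the highest superficial-to-deep ratios of the 7 genes in both libraries, and their promoters are shown for that reason. The RefSeq promoter table used (GRCm38.p6) matched 5 of the 7 genes, not Grik1 and Neto1. Neto2 had 2 entries in it, and only 1, which spans the GENCODE start, is shown. The stretches run 5' to 3' on the minus strand and end before both annotated starts, at chr9:42944494-42944621 for Grik4 and chr8:85700925-85701174 for Neto2. Capitals mark matches to GGGCGG (the GC box) and to CANNTG (the E-box), searched on both strands with TGACG (the core of the CRE) and TGANTCA (the AP-1 site).
Grik4: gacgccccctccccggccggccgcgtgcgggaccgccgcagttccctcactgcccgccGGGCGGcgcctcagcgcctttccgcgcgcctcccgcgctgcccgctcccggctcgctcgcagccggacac
Neto2: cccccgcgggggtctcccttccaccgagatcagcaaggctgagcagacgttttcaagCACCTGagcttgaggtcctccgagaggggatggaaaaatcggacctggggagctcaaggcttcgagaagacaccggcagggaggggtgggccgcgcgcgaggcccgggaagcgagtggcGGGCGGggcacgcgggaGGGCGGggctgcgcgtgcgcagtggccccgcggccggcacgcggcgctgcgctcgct
The Grik4 stretch of 128 bases had a GC content of 82% and held 1 GC box match. At least 1 such match was found in 27.1% of 32851 mouse promoters cut to the same length. The core of the CRE, the AP-1 site and the E-box, without a match in the Grik4 stretch, were found in 12.1%, 3.67% and 42.2% of those promoters. Those promoters were cut next to their RefSeq start, whereas the Grik4 stretch lies farther upstream, next to its GENCODE start. The Neto2 stretch of 250 bases had a GC content of 72% and held 2 GC box matches and 1 E-box match, motifs found in 32.7% and 66.2% of promoters of that length. It held neither the core of the CRE (17.8%) nor the AP-1 site (6.75%). The match counts describe the letters in these windows only.

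Epilepsy was compared with control as the log2 ratio of the levels, for genes with at least 50 UMIs in a class over both libraries, and a ratio of at least 0.5 in size was counted as past the fold. In CA1 pyramidal-like nuclei, Grik1 and Grik3 were past the fold upward, which is 2 of 7, and 0 were past it downward, beside 10.7% of 11079 genes upward and 7.5% downward. The median log2 ratio of the 7 genes was 0.25, against 0.00 over all genes counted. Neto2 lay just inside the fold at 0.47 (0.30 to 0.64). Grik2 was lower at -0.30 (-0.37 to -0.23) and Neto1 at -0.30 (-0.54 to -0.07), and Grik5 was higher at 0.21 (0.08 to 0.33). The Grik5 value became -0.05 when nuclei were thinned to equal depth, whereas Grik2 ranged from -0.38 to -0.27 over 11 other settings and Neto2 from 0.38 to 0.55. Grik4 had a log2 ratio of 0.25 (-0.01 to 0.50), an interval that included 0.

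The upward Grik1 value in pyramidal nuclei rests on low levels. Its log2 ratio of 1.01 (0.56 to 1.46) came from 94 UMIs in epilepsy and 78 in control, and 1.81% of thinned nuclei in epilepsy and 0.80% in control had a Grik1 UMI. Over 11 other settings the ratio ranged from 0.92 to 1.11. Among these, 1 left out 77 epilepsy and 80 control nuclei outside the interneuron class that had a Gad1, Gad2 or Slc32a1 UMI. The pyramidal Grik1 level was 1.38% of the interneuron level in epilepsy and 0.55% in control. For 7 interneuron markers, among them Gad1, Gad2 and Erbb4, the same share had a median of 0.78% (range 0.47 to 2.16) in epilepsy and 0.48% (0.32 to 1.02) in control, so Grik1 lay within the markers' range in both libraries. The summed level of these markers in pyramidal nuclei was 85 CPM in epilepsy and 57.7 CPM in control, a log2 ratio of 0.56 (0.38 to 0.74), and none of the 7 was at 0. In oligodendrocyte-like nuclei, whose Grik1 level exceeded the pyramidal one, the log2 ratio was 0.64 (-0.04 to 1.33). The part of the interneuron and oligodendrocyte-like values in the Grik1 result was not tested. Grik3, at 3.12% of its interneuron level in epilepsy and 1.62% in control, lay above the markers' range, and its ratio of 0.79 had an interval of -0.04 to 1.63 that included 0. It was no longer counted when a minimum of 200 UMIs was set, and neither was Grik1.

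**Figure D4:**
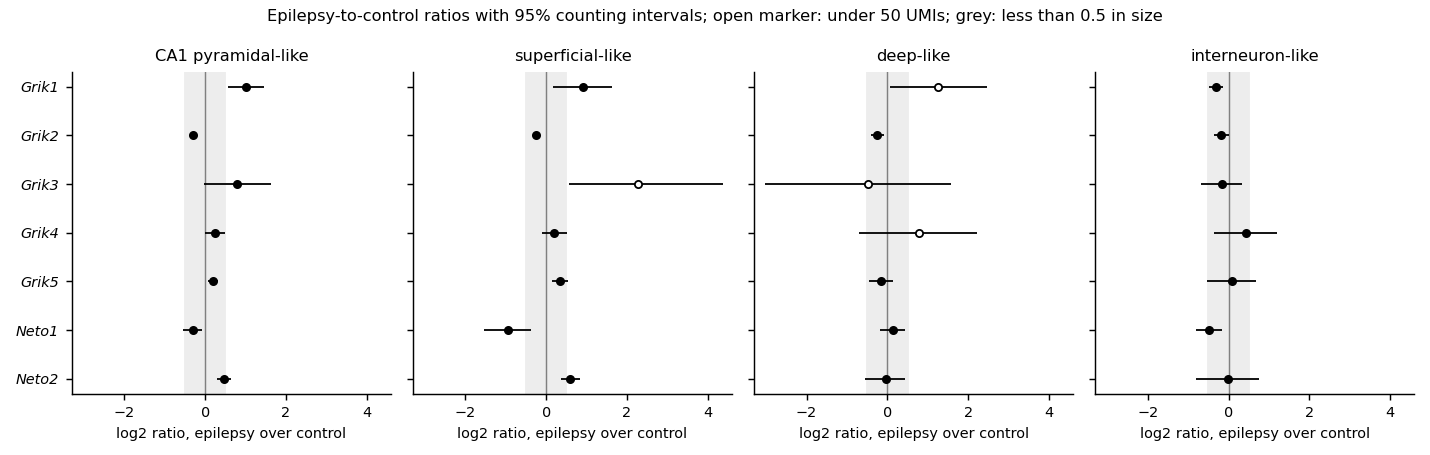
Log2 ratio of epilepsy to control for the 7 genes in 4 classes, with 95% counting intervals; open markers have fewer than 50 UMIs in both libraries together and the grey band holds ratios under 0.5 in size. In superficial-like nuclei Neto1 lay below the band at -0.95 and Neto2 above it at 0.59, while in deep-like nuclei both lay inside it, Neto1 at 0.14 and Neto2 at -0.04.

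With sublayers drawn by cluster, the auxiliary subunits differed between the sublayers in their epilepsy-to-control ratios. In superficial-like nuclei, Neto1 was lower in epilepsy (log2 ratio -0.95, -1.54 to -0.39) and Neto2 higher (0.59, 0.35 to 0.83). In deep-like nuclei the ratios were 0.14 (-0.17 to 0.45) for Neto1 and -0.04 (-0.55 to 0.44) for Neto2, both intervals including 0. The deep-layer markers Ndst4, Col11a1 and Nr4a2 summed to 155.8 CPM in epilepsy and 191.8 CPM in control in superficial-like nuclei. The part of this in the superficial Neto1 ratio was not tested. The superficial-minus-deep difference of the log2 ratios was -1.09 (-1.71 to -0.46) for Neto1 and 0.64 (0.11 to 1.16) for Neto2. Over the other settings the Neto1 difference ranged from -1.65 to -0.34 and the Neto2 difference from 0.15 to 0.98, with the same sign throughout. The deep-like Neto2 ratio itself ranged from -0.27 to 0.38 and had the other sign in 6 of 11 settings. When sublayers were split at the median marker score, the deep-like ratios were -0.26 for Neto1 and 0.38 for Neto2. The differences were then -0.34 for Neto1 and 0.19 for Neto2. Thinned to 1000 UMIs, 1.33% of 976 epilepsy and 2.66% of 1164 control superficial-like nuclei had a Neto1 UMI, and 13.1% of 436 epilepsy and 10.9% of 598 control deep-like nuclei did. Unthinned shares were 3.24% in epilepsy and 8.15% in control for superficial-like nuclei, and 26% in epilepsy and 28.8% in control for deep-like nuclei.

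Counted by the fold, Grik1 and Neto2 were upward and Neto1 downward among 6 genes with enough UMIs in superficial-like nuclei, beside 9.2% of 8937 genes upward and 8.27% downward. Among 4 such genes in deep-like nuclei, 0 were past the fold in either direction, beside 7.4% of 6543 genes upward and 11.3% downward. Neto1 in superficial-like nuclei rested on 35 epilepsy UMIs and was at -0.49, inside the fold, when only nuclei with at least 500 detected genes were kept. Grik5 had a log2 ratio of 0.34 (0.15 to 0.54) in superficial-like and -0.16 (-0.46 to 0.13) in deep-like nuclei, and the difference was 0.50 (0.16 to 0.85). When thinned, the superficial Grik5 ratio was 0.05. Grik2 was lower in epilepsy in both sublayers, with ratios of -0.24 in superficial-like and -0.25 in deep-like nuclei and a difference of 0.01 (-0.18 to 0.19).

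Grik2 was below its control level in each pyramidal sub-cluster with at least 30 nuclei in each library. The lowest ratio was -0.62 (-0.85 to -0.40) in the Mkx cluster, where Grik2 had 330.7 CPM in epilepsy and 509.4 CPM in control, and the highest was -0.23 (-0.38 to -0.09) in the Tenm3 cluster. In the cluster led by activity-induced genes such as Fos, Junb and Nr4a3 the ratio was -0.38 (-0.58 to -0.17). Neto2 had its highest ratio, 0.82 (0.29 to 1.36), in the same Mkx cluster, with 92.2 CPM in epilepsy and 52.1 CPM in control.

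Among CA2/CA3 pyramidal-like nuclei, Grik4 was past the fold upward (log2 ratio 1.24, 0.76 to 1.75), as 1 of 2 genes with enough UMIs, beside 14.4% of 822 genes upward and 12.7% downward. The ratio exceeded that in CA1 pyramidal-like nuclei by 0.99 (0.46 to 1.53). The makeup of this class differed between the libraries, and the part of this in the result was not tested. A Slit2-led cluster held 22 epilepsy and 7 control nuclei with 1621 CPM of Grik4 in epilepsy and 1017 CPM in control. A Slitrk3-led cluster held 1 epilepsy and 14 control nuclei, with 320.9 CPM in control. Its 1 epilepsy nucleus had 1181 UMIs in all and 0 of Grik4, too few to give a level. TMM scaling, an alternative to class totals, moved the class by 0.22 on the log2 scale. The marker Cpne4 also had a higher level in epilepsy (1478 CPM) than in control (965.4 CPM).

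Among interneuron-like nuclei, 0 of the 7 genes were past the fold, beside 7.78% of 3379 genes upward and 9.94% downward, and the median log2 ratio was -0.16 against 0.00 over all genes counted. Grik1 was lower in epilepsy at -0.31 (-0.48 to -0.14) and Neto1 at -0.48 (-0.81 to -0.16). Grik2, Grik3, Grik4, Grik5 and Neto2 had intervals that included 0, with ratios from -0.17 to 0.43. In the CGE-like subset Neto1 was past the fold downward (-0.69, -1.21 to -0.18), as 1 of 3 genes with enough UMIs, beside 9.6% of 833 genes downward and 10.6% upward, and Grik1 had a ratio of -0.04 (-0.36 to 0.27). The Meis2 and Chrm2 cluster, rich in Grik1, made up 3 of 143 epilepsy and 13 of 197 control interneuron-like nuclei. The Kit and Ndnf cluster, also rich in Grik1, held 9 epilepsy and 9 control nuclei. The cluster led by Cdh18 and Syt2, low in Grik1, held 22 epilepsy and 39 control nuclei. The part of the makeup of the class in its Grik1 ratio was not tested.

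Other glutamate receptor genes were set beside these values. Of 13 AMPA, NMDA and delta receptor genes, 11 had enough UMIs in CA1 pyramidal-like nuclei. Of these, 0 were past the fold in either direction, beside 10.7% of all genes counted upward and 7.5% downward. The 11 genes had a median log2 ratio of 0.10 and a range from -0.42 to 0.26. In superficial-like nuclei 1 of 11 was past the fold, beside 9.2% of all genes counted upward and 8.27% downward. It was Gria3, an AMPA receptor subunit gene, at -0.54 (595.9 CPM in epilepsy and 865.9 CPM in control). In interneuron-like nuclei 1 of 11 was past the fold, beside 7.78% of all genes counted upward and 9.94% downward. It was Grin2d, an NMDA receptor subunit gene, at 0.55 with an interval of -0.25 to 1.34.

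A list of 22 genes whose proteins bind, edit or modify kainate receptors was described in the same way, of which 21 were found. In CA1 pyramidal-like nuclei 18 had enough UMIs and 1 was past the fold upward, beside 10.7% of all genes counted. The 18 genes had a median log2 ratio of 0.08. Prkca, a protein kinase C gene, had 1824 CPM in epilepsy and 1263 CPM in control (0.53, 0.49 to 0.57). In deep-like nuclei Prkca (0.57) and Adarb1 (0.51), which encodes an RNA-editing enzyme of glutamate receptor transcripts, were upward among 17 genes, and Cul3, a ubiquitin ligase scaffold gene, was downward at -0.66. Over all genes counted in deep-like nuclei, 7.4% were upward and 11.3% downward. Of 12 such genes in interneuron-like nuclei, the scaffold gene Grip2 was upward (1.03, 0.35 to 1.72) and the scaffold gene Cask downward (-0.58, -1.14 to -0.04). The shares over all genes counted in that class were 7.78% upward and 9.94% downward.

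Likeness between profiles was described over 15 sums of a class in a library with at least 30 nuclei each, as the Pearson correlation of log2(CPM + 10). The sums share libraries, depth and free RNA, so no p is given. Among the 7 genes the highest correlation was between Grik1 and Grik3 (0.79), followed by Grik3 and Neto1 (0.72) and Grik2 and Grik3 (0.68), and the lowest was between Grik5 and Neto2 (-0.45). Neto1 and Neto2 had a correlation of -0.14. Over all genes counted, the profiles most like Grik1 were those of Apba1 and Kctd8 (0.93 each) and Erbb4 (0.92). Most like Grik2 were Thsd7a (0.96), Sema6d (0.92) and Nalcn (0.88), and most like Grik3 were Mgat5b, Grm8 and Pcdh15 (0.89 each). For Grik4, Dpyd, Lrp1b (0.81 each) and Cdk14 (0.80) came closest, and for Grik5, Slc11a2 (0.86), Dgke (0.85) and Mettl24 (0.82). Kcnd3 and Sestd1 (0.90 each) and Lin7a (0.88) were closest to Neto1, and Cacna1g (0.85), Tfcp2 and Igsf9b (0.81 each) to Neto2.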

How the data were processed

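The deposited files hold raw UMI counts per gene and nucleus, whole numbers that the authors did not normalise, with 1 matrix per library. The submitters' processing notes name FastQC, Cell Ranger 2.2.0 and the genome build GRCm38 (mm10). The annotation, the choice of barcodes and the counting of intronic reads are not given in the sources used here. Per the labels' protocols, nuclei were run with the 10x Genomics 3' v2 kit and sequenced as 75 bp paired-end reads.

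Groups come from the condition label, with 1 library each. A filter on 200 detected genes and 5% mitochondrial UMIs removed 0 nuclei. Scrublet marked 4 nuclei in each library (0.130% in epilepsy and 0.109% in control), too few to have worked, so the top 3% of scores were removed (93 epilepsy and 110 control nuclei). Counts were scaled to 10000 per nucleus and log-transformed, and the 2000 most variable genes, without the 7 members, were standardised within each library, reduced to 30 components and clustered (scanpy 1.11.5, 20 neighbours, leidenalg 0.10.2, resolution 1.0). Grik1, Grik3 and Grik4 would have been among these genes, and Neto1 among those of the second clustering of pyramidal nuclei. Classes were named from marker lists. The members and lists were chosen with earlier results of these data known.

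UMIs were summed per class and library. Sums carry exact Poisson intervals, ratios exact conditional binomial intervals, differences of log2 ratios a normal approximation on the log scale, and shares Clopper-Pearson intervals, all at 95%. Ratios were made in classes with 30 nuclei in each library. The genes named are the 7 members, the members of 2 lists past the fold, and the 3 genes most like each member among genes with at least 200 UMIs that are not mitochondrial or predicted gene models. The code was tested on simulated data. edgeR 4.0.16 in R 4.3.3 was used for TMM factors only. No overlapping gene on either strand has its own row in the matrices. Gene positions are from GENCODE for GRCm38. Alternatives to these steps are given in the closing section. The values of 1 gene of the second list are not reported here.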

Additional observations from a re-analysis of the deposited data

Results flagged for a closer look

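Grik1 had opposite directions in the interneuron and pyramidal classes. Its log2 ratio of epilepsy to control was -0.31 in interneuron-like nuclei, against 1.01 in CA1 pyramidal-like nuclei and 0.90 in superficial-like nuclei. With 1 library per condition the difference between classes was not tested. Its size for interneuron-like minus CA1 pyramidal-like nuclei was -1.32, with a counting interval of -1.78 to -0.85. The pyramidal level was 16.1 CPM in epilepsy and 8.03 CPM in control, and as a share of the interneuron level it lay within the range of the interneuron markers in both libraries.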

How the results depend on the processing

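No paired analysis was possible because each condition has 1 library. There were 16 settings, 3 of them added after seeing the data. The UMI minima and the fold of 1.0 gave counts of members only. In the rest, 357 of 374 alternative values of 36 quantities stayed inside the counting interval of the reported value. Outside it lay 17, and 0 turned the sign of a ratio past the fold. TMM scaling was applied to epilepsy-to-control ratios only. The superficial-to-deep values counted under it therefore equal the reported ones by construction. Counts of members past the fold are small and moved. In CA1 pyramidal-like nuclei the 2 upward became 1 at Leiden resolution 2.0, 0 at a minimum of 200 UMIs, 1 at a fold of 1.0, and 1 without the 2 pyramidal sub-clusters with the lowest UMI counts (404 epilepsy and 453 control nuclei). In deep-like nuclei the 0 upward became 1 at a minimum of 20 UMIs and 1 when sublayers were split at the median marker score. In superficial-like nuclei the 2 upward became 1 at resolution 2.0, when thinned to 1000 UMIs and at 200 UMIs, and 0 at a fold of 1.0, and the 1 downward became 0 with at least 500 detected genes, when thinned, at 200 UMIs and at a fold of 1.0. In interneuron-like nuclei the 0 upward became 2 with equal weight per nucleus, and the 0 downward became 1 with doublets kept, with TMM scaling and with equal weight. A minimum of UMIs or thinning leaves fewer genes to count, and the cause of the other moves was not tested. TMM factors shifted ratios by 0.22 on the log2 scale in CA2/CA3 pyramidal-like nuclei, by -0.24 in microglia-like nuclei, and by -0.09 to 0.03 in the other 6 classes. The superficial-to-deep ratios depended most on how sublayers were drawn: split at the median marker score, Grik4 was 1.26 in epilepsy and 1.49 in control, Neto1 was -1.88 in epilepsy and -1.54 in control, and Neto2 was 0.48 in epilepsy and 0.29 in control. At Leiden resolution 0.5 the Neto2 ratio in epilepsy was 0.63. Low depth limits Grik3 in all classes and every value in the 14 epilepsy granule-like nuclei.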
